A study of Mus musculus with 12 samples.

Results

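Expression of 8 genes of fructose metabolism and of ChREBP with its targets was followed across 12 mouse liver RNA-seq libraries. The genes were taken by name from the count tables: *Khk*, *Tkfc*, *Glyctk*, *Mlxipl*, *Pklr*, *Txnip*, *Tkt* and *G6pdx*. All 8 were found among the 20093 genes that both tables list, and all 8 passed the filter on low counts in every comparison. The livers came from male HuR flox/flox mice on the C57BL/6N background, in which *Elavl1*, the gene of the RNA-binding protein HuR, is floxed, in 4 groups of 3. Per the labels the mice were injected at 4 to 6 months of age. The groups labelled HuRHep-/- received AAV8-Tbg-Cre, a virus that expresses Cre from a hepatocyte promoter, and the groups labelled WT received AAV8-Tbg-null, so that every group carried the floxed allele and a virus and only hepatocytes were targeted. The study's methods instead describe a cross with albumin-Cre mice of a younger age, and the tables do not show which description holds. Livers of each genotype were taken on normal chow or after 16 weeks of a high fat, cholesterol and fructose (HFCF) diet with 40 kcal% fat, 2% cholesterol and 20 kcal% fructose. The time on chow is not given in the sources used here. The labels number the replicates without saying how they were raised, so the p-values measure the spread between these samples.

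The liver takes up most dietary fructose and traps it by phosphorylation. Ketohexokinase (*Khk*) makes fructose-1-phosphate, aldolase B cleaves it, and triokinase (*Tkfc*) phosphorylates the glyceraldehyde that is released, while glycerate kinase (*Glyctk*) acts on glycerate, a side product of glyceraldehyde. Sugar phosphates activate ChREBP, the transcription factor encoded by *Mlxipl*, which binds carbohydrate response elements together with its partner Mlx. Among its known targets are liver pyruvate kinase (*Pklr*), which catalyses the last step of glycolysis, *Txnip*, which encodes a thioredoxin-binding protein that restrains glucose uptake, and enzymes of lipogenesis. Transketolase (*Tkt*) and glucose-6-phosphate dehydrogenase (*G6pdx*) belong to the pentose phosphate pathway, a source of NADPH for lipid synthesis.

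The response element of ChREBP consists of a pair of E-box-like motifs held 5 bases apart. Promoter sequences of RefSeq on GRCm38.p6, 250 bases before to 50 after each start, were available for all 8 genes. Searched on both strands, the 17-base consensus of the carbohydrate response element was present in 39 of 32851 promoter windows, or 0.119%, and in 0.137% of genes. Among the 8 genes it was found in *Pklr* alone, 170 to 154 bases before the second of its listed starts. The full E-box CACGTG was present in 2349 windows, or 7.15%, and in 8.09% of genes. Among the 8 genes it was found in *Khk*, 71 bases before the RefSeq start, and in *Mlxipl*, 98 bases before the upstream start of a pair that lies 17001 bases apart. No match of either kind was found in the windows of *Tkfc*, *Glyctk*, *Txnip*, *Tkt* and *G6pdx*. These distances are from the RefSeq starts, and the gene positions given further on are from GENCODE, where *Khk* and *Pklr* begin upstream of them. Against those gene starts the E-box of *Khk* lies 57 bases inside the gene, and the element of *Pklr* 311 bases inside. The stretches with matches are printed 5′ to 3′ on the plus strand to show the letters found, with the paired motifs or the E-box in capitals.
Pklr, chr3:89136431-89136491: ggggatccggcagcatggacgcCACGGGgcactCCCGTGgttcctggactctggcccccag
Khk, chr5:30921476-30921505: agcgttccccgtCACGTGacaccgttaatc
Mlxipl, chr5:135089780-135089809: gcggctgccatcCACGTGctaaggagagaa
A match is a description of letters and not a measured binding site.

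Between 30071731 and 35949203 reads were counted per library. The targeted gene did not follow the labels. *Elavl1* was measured at 29.3–31 CPM (its reads as a share of the library, on the usual per-library scale) in the 3 chow livers labelled WT and at 38.8–42.8 CPM in those labelled HuRHep-/-, and at 23.9–27 against 32.2–34.2 CPM on HFCF. The fitted difference was +0.41 ± 0.068 (log2, SE; adjusted p = 0.022, limma) on chow and +0.38 ± 0.072 (adjusted p = 0.0327) on HFCF. Leaving out single libraries kept the sign, with adjusted p between 0.0377 and 0.106 on chow and between 0.0281 and 0.121 on HFCF; the call was lost on chow without WT replicate 1 or 3 or HuRHep-/- replicate 1 or 2, and on HFCF without any liver but WT replicate 3. A count over the whole gene does not show whether the floxed segment was lost. The genotype directions given here therefore rest on the labels. Hepatocyte markers were the most abundant of the marker lists in all 12 libraries, with a summed level of 8 genes of 103000–126000 CPM in the chow livers labelled WT, 81600–92700 in the chow livers labelled HuRHep-/-, and 73000–84100 and 64100–70000 in the matching HFCF groups. The largest part of these sums was *Alb*, with group means of 74100, 52600, 45100 and 41700 CPM in the same order. *Alb* itself did not pass in any comparison.

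Compared per kilobase of exon, *Khk* had the highest level of the 8 genes in every group and *G6pdx* the lowest. In chow livers labelled WT, *Khk* was measured at 248 ± 18.4 CPM per kilobase (SD, n = 3), *Tkfc* at 86.3 ± 11.8, *Pklr* at 72.8 ± 20.2, *Txnip* at 59.7 ± 4.26, *Glyctk* at 50.3 ± 4.46 and *Mlxipl* at 45.1 ± 3.46. Among neighbours in this order, the spreads of *Tkfc* and *Pklr*, of *Pklr* and *Txnip* and of *Glyctk* and *Mlxipl* overlapped. *Tkt* followed at 18.5 ± 1.95 and *G6pdx* at 1.15 ± 0.166 CPM per kilobase. In each other group *Txnip* stood below *Glyctk* and *Mlxipl*, with the spreads of *Txnip* and *Mlxipl* overlapping. In chow livers labelled HuRHep-/- it had 40.2 ± 8.41 CPM per kilobase, against 43.9 ± 3.42 and 41.2 ± 1.11. In HFCF livers labelled WT it had 34.8 ± 16.6, against 63.8 ± 1.19 and 46.2 ± 13. In HFCF livers labelled HuRHep-/- it had 29.2 ± 9.19, against 50.8 ± 2.7 and 38.1 ± 1.64, and stood near *Tkt* at 25.6 ± 4.18.

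**Figure D1:**
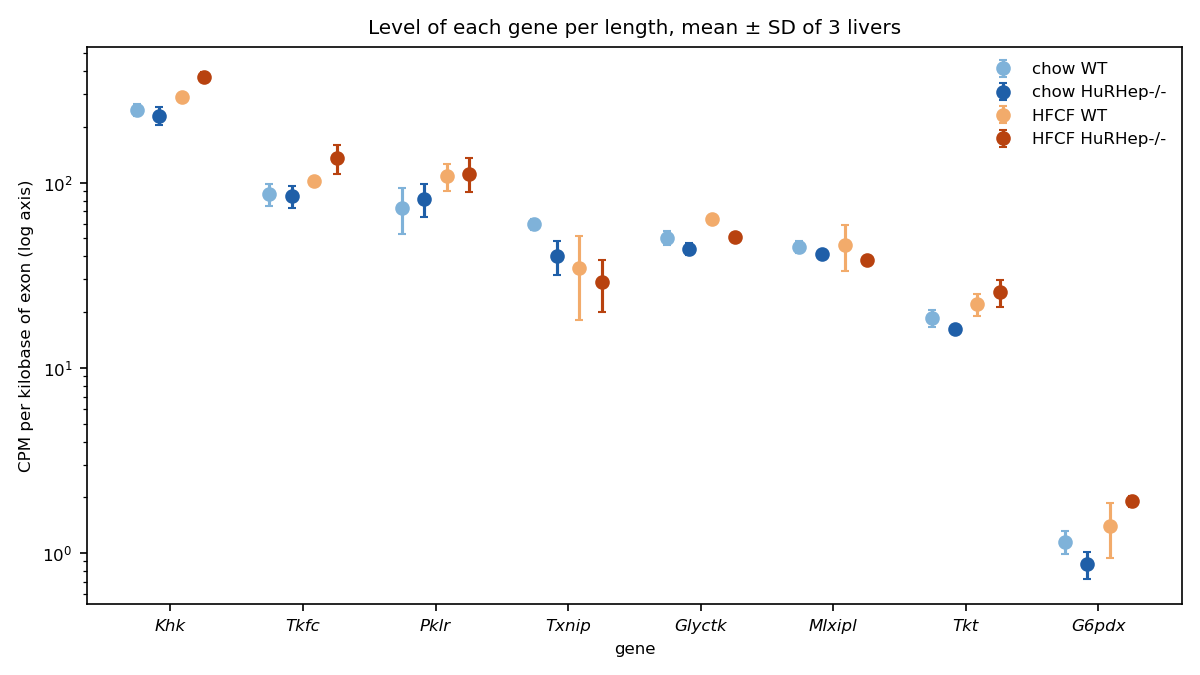
Level of each gene in CPM per kilobase of exon, on a log axis, as mean ± SD of the 3 livers of each group. *Khk* lies above all others in every group, at 230–372 CPM per kilobase, and *G6pdx* lies lowest, at 0.871–1.9.

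*Khk* (ENSMUSG00000029162, GRCm38 chr5:30921431-30931248, plus strand) was the fructose gene with the clearest pattern over the 4 groups. The 3 chow livers labelled WT had 433, 421 and 483 CPM, and the 3 labelled HuRHep-/- had 373, 404 and 463 CPM. On HFCF the livers labelled WT had 498, 532 and 528 CPM, and those labelled HuRHep-/- had 696, 685 and 623 CPM. All HFCF livers lay above all chow livers, and on HFCF the genotypes did not overlap, with those labelled HuRHep-/- higher. The diet difference was +0.70 ± 0.089 (log2, SE; 1.62-fold, adjusted p = 0.000329) in livers labelled HuRHep-/- and +0.22 ± 0.089 (adjusted p = 0.0902) in those labelled WT. The genotype difference was +0.35 ± 0.075 (1.27-fold, adjusted p = 0.0423) on HFCF and -0.11 ± 0.096 (adjusted p = 0.543) on chow. The genotype difference on HFCF passed with a narrow margin: leaving out any library of that diet except WT replicate 2 gave an adjusted p of 0.0528–0.154, at log2 values of 0.32–0.40, the fit with the replicate number as a block gave 0.056 and the fit without a filter on low counts 0.0596. Counts per gene do not separate the 2 *Khk* isoforms, ketohexokinase-A and -C.

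*Tkfc* (chr19:10587791-10605654, minus strand), the next kinase of the route, had 339, 445 and 411 CPM in chow livers labelled WT and 362, 358.5 and 449 CPM in those labelled HuRHep-/-. On HFCF the levels were 471, 456 and 490 CPM in livers labelled WT and 741, 621 and 518 CPM in those labelled HuRHep-/-. As with *Khk*, every HFCF liver lay above every chow liver. The diet difference passed in livers labelled HuRHep-/- (+0.68 ± 0.14, log2, SE; 1.6-fold, adjusted p = 0.00315) and not in those labelled WT (+0.25 ± 0.14, adjusted p = 0.199). The genotypes did not overlap on HFCF, yet the difference of +0.38 ± 0.13 did not pass (adjusted p = 0.109).

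*Glyctk* (chr9:106152857-106158138, minus strand) was the only one of the 8 genes to pass in the comparison of genotypes averaged over both diets. It was measured at 210, 233 and 196 CPM in chow livers labelled WT and at 192, 169 and 196 CPM in those labelled HuRHep-/-, where the groups overlapped by a narrow margin. On HFCF it was measured at 265, 275 and 269.7 CPM in livers labelled WT and at 218, 224 and 202 CPM in those labelled HuRHep-/-, without overlap and with the latter lower. The averaged difference was -0.26 ± 0.056 (log2, SE; 0.833-fold, adjusted p = 0.00787), and it passed with each of the 12 libraries left out in turn (adjusted p 0.00785–0.0213). On HFCF alone it was -0.35 ± 0.064 (0.787-fold, adjusted p = 0.0318), which no longer passed without HFCF WT replicate 1 or without any of the 3 HFCF livers labelled HuRHep-/- (adjusted p 0.0849–0.124). On chow the estimate was -0.19 ± 0.089 (adjusted p = 0.244). With diet, *Glyctk* rose in livers labelled WT (+0.34 ± 0.078, 1.27-fold, adjusted p = 0.00961), and in those labelled HuRHep-/- the estimate was +0.21 ± 0.078 (adjusted p = 0.0525). The latter passed in 3 of 12 fits without single libraries (lowest adjusted p 0.0339, limma) and in 2 of 8 other settings (lowest 0.0136). Of the exon bases of *Glyctk*, 54.2% lie opposite a gene on the other strand. The study's methods name a reverse strand setting for the alignment and do not say how reads on both strands were counted. The same kind of overlap covers 13.6% of *G6pdx*, 19.4% of *Txnip*, 20% of *Tkfc* and 22% of *Pklr*.

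**Figure D2:**
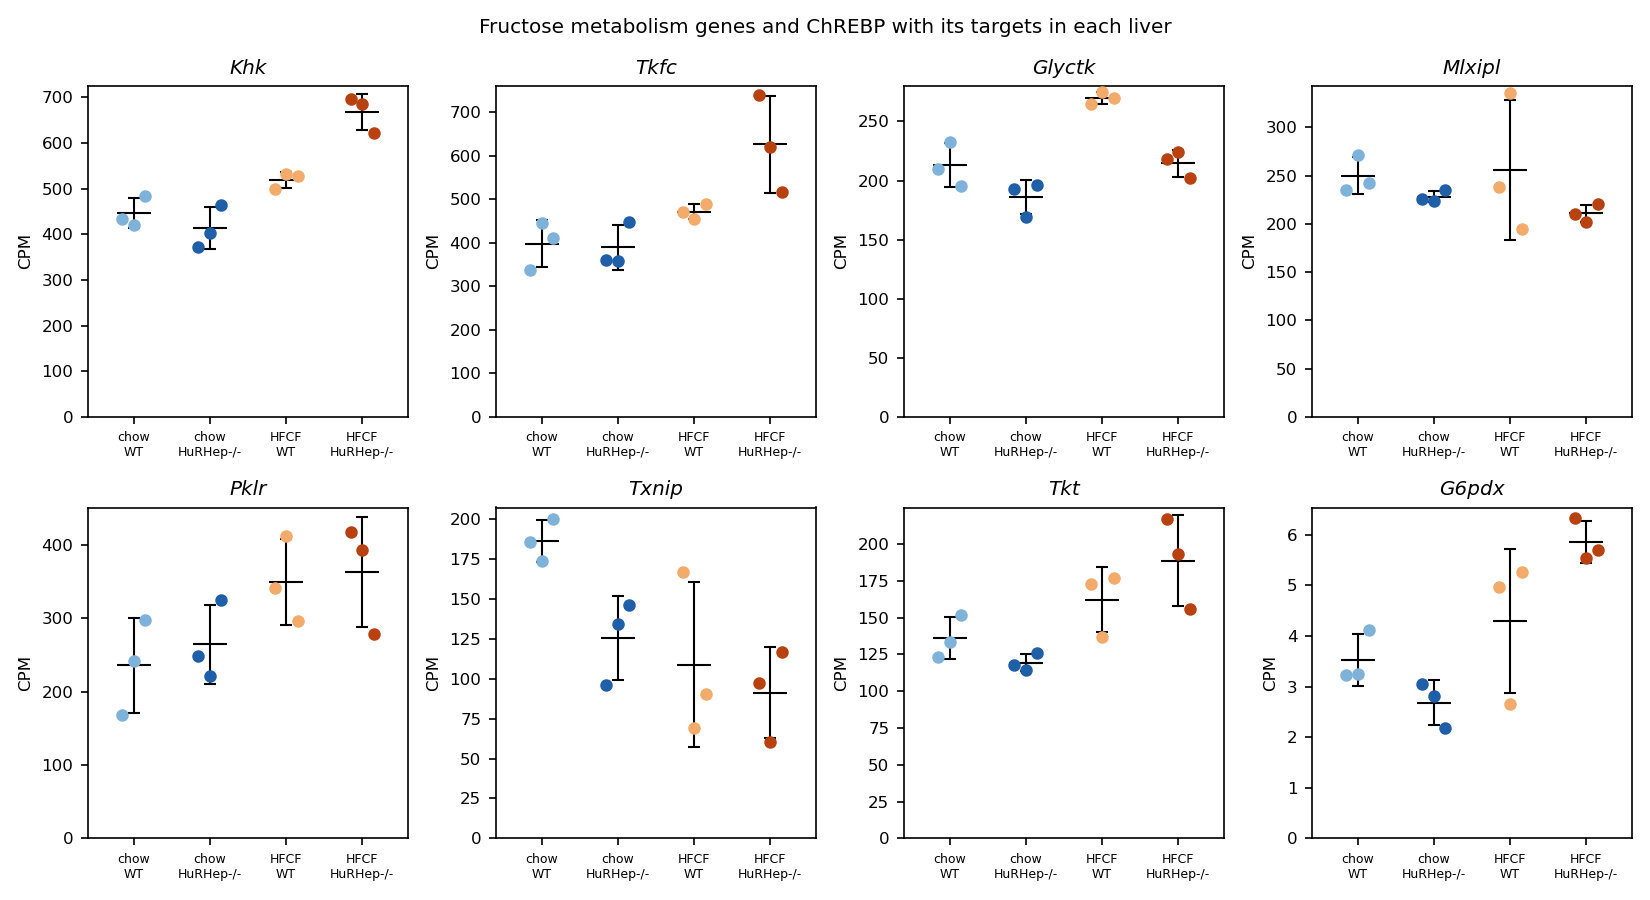
CPM of each gene in each of the 12 livers (points, 3 per group; bars, mean ± SD), with a linear axis from 0. In the *Khk* and *Tkfc* panels all HFCF points lie above all chow points, and in the *Txnip* panel HFCF WT spans 68.9 to 167 CPM.

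The gene of ChREBP itself, *Mlxipl* (chr5:135089890-135138382, plus strand), passed in none of the 6 comparisons. Its levels were 235, 272 and 243 CPM in chow livers labelled WT, 226, 224 and 235 CPM in chow livers labelled HuRHep-/-, 238, 335 and 194 CPM in HFCF livers labelled WT, and 210, 202 and 220 CPM in HFCF livers labelled HuRHep-/-. The HFCF WT group held both the highest and the lowest value of the 12. The diet difference in livers labelled WT was 0.00 ± 0.15 (log2, SE; adjusted p = 0.997), and without HFCF WT replicate 2, the highest liver, it was -0.21 (adjusted p = 0.109). In livers labelled HuRHep-/- the diets did not overlap, yet the difference of -0.12 ± 0.15 did not pass (adjusted p = 0.562). The genotype difference was -0.12 ± 0.073 on chow (adjusted p = 0.362) and -0.26 ± 0.18 on HFCF (adjusted p = 0.373). Averaged over the diets it was -0.19 ± 0.11 (adjusted p = 0.233), and without HFCF WT replicate 3, the lowest liver, it passed at -0.27 (adjusted p = 0.0378). Whole-gene counts do not separate the ChREBP-alpha transcript from the shorter ChREBP-beta transcript, which begins at another start. The partners *Mlx* and *Mlxip* were measured at 30.2–32.7 and 5.65–6.99 CPM as group means, and neither passed in any comparison.

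Levels of *Pklr* (chr3:89136142-89146784, plus strand), whose promoter holds the element printed above, were 168, 241 and 298 CPM in chow livers labelled WT and 248, 221 and 325 CPM in those labelled HuRHep-/-. On HFCF they were 340.5, 412 and 296 CPM in livers labelled WT and 418, 393 and 278 CPM in those labelled HuRHep-/-. The diet groups overlapped in both genotypes. The diet difference was +0.60 ± 0.22 (log2, SE; adjusted p = 0.071) in livers labelled WT and +0.45 ± 0.22 (adjusted p = 0.126) in those labelled HuRHep-/-. Without chow WT replicate 3, the highest of its group, the former was +0.79 (adjusted p = 0.0398). The counts do not tell the liver transcript from the red cell transcript of this gene.

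*Txnip* (chr3:96557957-96561883, plus strand) had its highest levels in chow livers labelled WT, at 186, 174 and 200.3 CPM. Chow livers labelled HuRHep-/- had 96.1, 134 and 146 CPM, HFCF livers labelled WT 167, 68.9 and 90.4 CPM, and HFCF livers labelled HuRHep-/- 97.2, 60.1 and 117 CPM. The first group did not overlap with either of the groups that differ from it by genotype or diet alone. The differences missed the threshold all the same, at -0.58 ± 0.15 (log2, SE; 0.667-fold, adjusted p = 0.0697) for genotype on chow and -0.88 ± 0.3 (0.544-fold, adjusted p = 0.0539) for diet in livers labelled WT. Without chow HuRHep-/- replicate 3 the former was -0.71 (adjusted p = 0.0451). Without HFCF WT replicate 1, the highest of its group, the latter was -1.24 (adjusted p = 0.0108), without HFCF HuRHep-/- replicate 2 it was -0.88 (adjusted p = 0.0405), and with the replicate number as a block -0.88 (adjusted p = 0.0458). All 9 livers of the other groups stood below the lowest chow WT liver.

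The pentose phosphate genes differed by diet in the livers labelled HuRHep-/-. *Tkt* (chr14:30548359-30574720, plus strand) was measured at 123, 134 and 152 CPM in chow livers labelled WT and at 118, 115 and 126 CPM in those labelled HuRHep-/-. On HFCF it was measured at 173, 137 and 177 CPM and at 217, 193 and 156 CPM, respectively. The diet difference was +0.65 ± 0.13 (log2, SE; 1.57-fold, adjusted p = 0.00285) in livers labelled HuRHep-/-, where the diets did not overlap, and +0.25 ± 0.13 (adjusted p = 0.182) in those labelled WT, where they did.

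*G6pdx* (chrX:74409483-74429194, minus strand) had the largest fitted diet difference of the 8 genes at the lowest level. In raw counts, chow livers had 98, 97 and 126 reads with the label WT and 105, 91 and 71 with the label HuRHep-/-, and HFCF livers had 188, 87 and 166 and 254, 214 and 212. As levels these were 3.23, 3.24 and 4.12 CPM, 3.04, 2.82 and 2.19 CPM, 4.96, 2.66 and 5.27 CPM, and 6.33, 5.55 and 5.71 CPM in the same order of groups. The genotypes did not overlap on either diet: those labelled HuRHep-/- were lower on chow (-0.39 ± 0.18, log2, SE; adjusted p = 0.24) and higher on HFCF (+0.49 ± 0.26, adjusted p = 0.243), and neither difference passed. The diet difference was +1.13 ± 0.23 (2.2-fold, adjusted p = 0.00352) in livers labelled HuRHep-/- and +0.23 ± 0.23 (adjusted p = 0.509) in those labelled WT. The latter rose to +0.54 (adjusted p = 0.0352) without HFCF WT replicate 2, the only HFCF liver under 3 CPM. Of the words of 31 bases in the *G6pdx* transcript, 14.8% also occur in transcripts of other genes, with *G6pd2* the closest, so part of its count is uncertain.

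**Figure D3:**
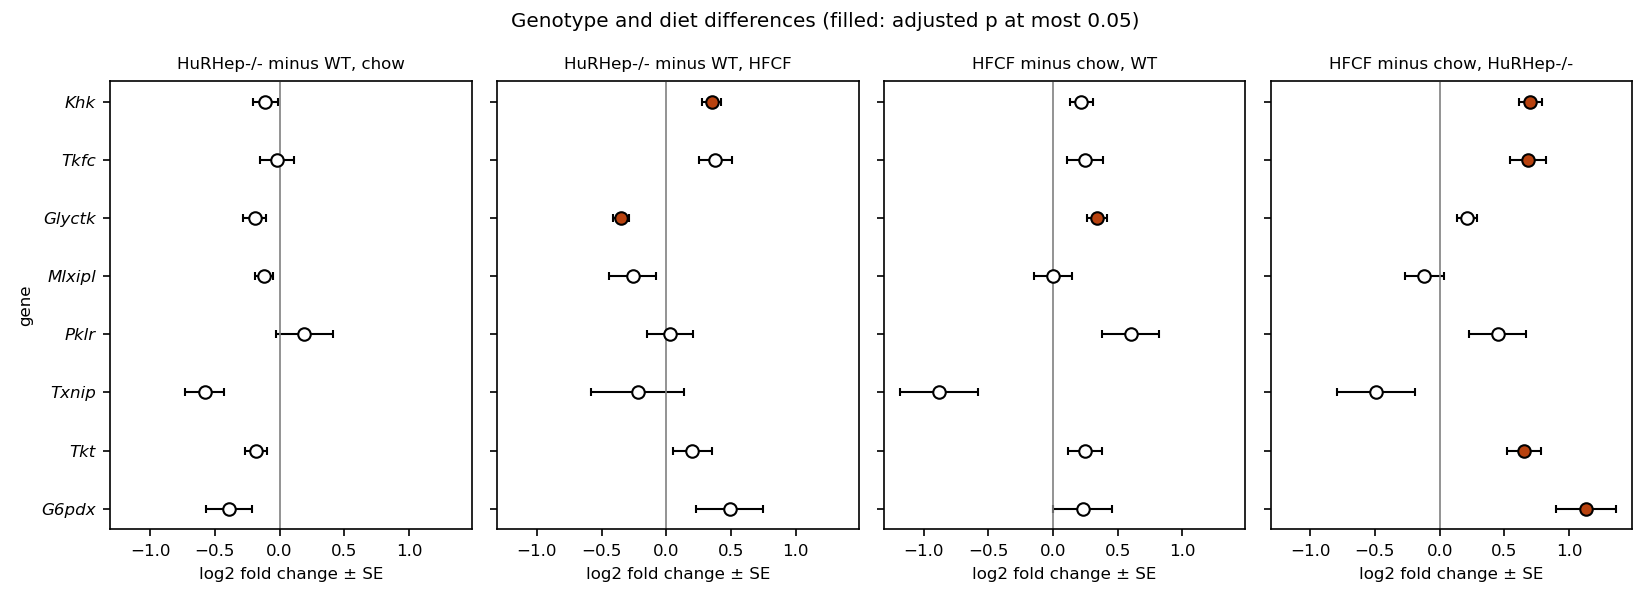
Log2 fold change ± SE of the 8 genes in 4 comparisons, with filled points at an adjusted p of at most 0.05. On HFCF, *Khk* is filled to the right of 0 and *Glyctk* to the left; in the rightmost panel *Khk*, *Tkfc*, *Tkt* and *G6pdx* are filled, from 0.65 to 1.13.

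Read against all genes, the counts for the 8 genes were as follows. For genotype on chow 0 of 8 passed (limma, and 0 with voom weights; 1, *Txnip*, at an unadjusted p under 0.05), beside 4.18% of the genes tested and 3184 of 13526 at an unadjusted p under 0.05. For genotype on HFCF 1 rose and 1 fell, beside 6.79%, and neither reached the fold change of 1.5 that the study also asked for. For genotype averaged over the diets 1 fell, beside 19.2%. For diet in livers labelled WT 1 rose, beside 24.2%. For diet in livers labelled HuRHep-/- 4 rose and 0 fell, beside 38.9% in either direction and 19.7% higher, and the same 4 also reached a fold change of 1.5, beside 19.6%. That count was 4 or 5 under every alternative tried, those without single libraries included.

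The genotypes did not overlap for 2 of 8 genes on chow, beside 28.2% of all genes, and for 4 of 8 on HFCF, beside 35.9%. The diets did not overlap for 4 of 8 in livers labelled WT, beside 37.6%, and for 6 of 8 in those labelled HuRHep-/-, beside 54.6%. The median log2 difference of the 8 genes was -0.15 and 0.11 for genotype on chow and HFCF, and 0.24 and 0.55 for diet in livers labelled WT and HuRHep-/-, beside medians over all genes of 0.005, -0.002, 0.009 and 0.002.

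An interaction term asked whether the genotype difference changed with diet. None of the 8 genes passed (limma, 0 of 8, and 0 with voom weights), and 3 had an unadjusted p under 0.05: *Khk* at 0.48 ± 0.13 (log2, SE; adjusted p = 0.167), *Tkt* at 0.40 ± 0.18 (adjusted p = 0.345) and *G6pdx* at 0.91 ± 0.33 (adjusted p = 0.265). *Tkfc* was estimated at 0.42 ± 0.19 (adjusted p = 0.349). In the whole table of 14535 genes the share that passed was 0%, with 2088 genes at an unadjusted p under 0.05 and 1 gene called with voom weights. The diet differences of *Khk*, *Tkfc*, *Tkt* and *G6pdx* are thus not shown to differ between genotypes.

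Each diet was deposited in a table of its own, and diet cannot be told apart from any other difference between the tables. Markers of other cell types moved with diet as well. In livers labelled HuRHep-/-, 7 of 7 stellate cell markers, 6 of 7 recruited macrophage markers, 5 of 6 cholangiocyte markers and 3 of 6 lymphocyte markers were higher on HFCF, and 5 of 8 hepatocyte markers were lower, beside 19.7% of all genes higher and 19.1% lower. Their summed level was 128–198 CPM on chow and 366–459 on HFCF for stellate cells, 21.3–33.6 and 61.8–93 for recruited macrophages, 19.1–29.9 and 34.6–47.1 for cholangiocytes, and 2.12–3 and 3.9–5.88 for lymphocytes. In livers labelled WT 1 stellate cell, 3 recruited macrophage, 0 cholangiocyte and 0 lymphocyte markers were higher, and 4 hepatocyte markers were lower, beside 11.3% of all genes higher and 12.9% lower. HFCF WT replicate 2 had 16.9 CPM of recruited macrophage markers and 165 CPM of stellate cell markers, the lowest of the HFCF livers, and it also had the lowest *Tkt* and *G6pdx* of them. The highest sums of both lists, 93 and 459 CPM, were in HFCF HuRHep-/- replicate 3. That liver had the lowest *Tkt* of its group, 156 CPM, and 5.71 CPM of *G6pdx*. Of the Kupffer cell markers 2 of 6 were higher on HFCF in each genotype, of the endothelial markers 1 of 6 in livers labelled HuRHep-/- and 0 in those labelled WT, and of the erythroid markers 0 of 5. Genes of the fed and fasted state were higher for 3 of 9 in livers labelled WT and 2 of 9 in those labelled HuRHep-/-, and clock genes were lower for 1 and 2 of 14. In livers labelled WT, the 2 of 6 Kupffer cell markers and 3 of 9 fed or fasted genes lie above the 11.3% of all genes higher. The other counts in the Kupffer cell, endothelial, fed or fasted and clock lists lie nearer the shares of all genes, and nothing is read from any of them. The fed or fasted gene with the lowest p, *Srebf1*, rose in livers labelled WT (+1.73 ± 0.22, log2, SE; adjusted p = 0.000647, limma) and HuRHep-/- (+1.66 ± 0.22, adjusted p = 0.000386). No marker was at 0 in all libraries. The part of these cells in the differences of *Tkt*, *G6pdx* and the other genes was not tested, and in whole liver fewer cells of a type and less RNA per cell cannot be told apart. For genotype on HFCF, where *Khk* and *Glyctk* differed, 2 of 6 cholangiocyte markers and 1 of 7 recruited macrophage markers were higher and 1 of 8 hepatocyte markers, *Cyp2e1*, was lower (-0.76 ± 0.17, log2, SE; adjusted p = 0.0463), beside 2.85% of all genes higher and 3.95% lower. For genotype averaged over the diets, where *Glyctk* was lower, 3 of 6 Kupffer cell markers, 3 of 7 recruited macrophage markers and 1 of 6 cholangiocyte markers were higher and 1 of 8 hepatocyte markers was lower, beside 8.95% of all genes higher and 10.3% lower, and their part was not tested.

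Of 10 other genes of fructose handling, 2 rose and 0 fell with diet in livers labelled WT, and 4 rose and 2 fell in those labelled HuRHep-/-, beside 24.2% and 38.9% of all genes in either direction. *Aldh3a2*, a fatty aldehyde dehydrogenase, rose by 1.34 ± 0.12 (log2, SE) in both genotypes (adjusted p = 0.000102 and 6.66e-05), from group means of 307 and 252 CPM to 784 and 635 CPM. *Akr1b3*, the aldose reductase that starts the polyol route from glucose to fructose, rose in both as well (+0.56 ± 0.12, adjusted p = 0.00594, and +0.46 ± 0.12, adjusted p = 0.00964). The glucose transporter genes *Slc2a8* (-0.65 ± 0.067, adjusted p = 0.000123) and *Slc2a2* (-0.35 ± 0.088, adjusted p = 0.00908) fell in those labelled HuRHep-/-, beside estimates of -0.20 ± 0.067 (adjusted p = 0.052) and -0.22 ± 0.088 (adjusted p = 0.0896) in those labelled WT. By genotype on chow 1 of the 10 passed, *Slc2a8*, which was higher at 23.7 ± 0.54 CPM in livers labelled HuRHep-/- against 17.1 ± 0.946 CPM (SD, n = 3; +0.48 ± 0.075, adjusted p = 0.0196), beside 4.18% of all genes, and on HFCF 0 passed, beside 6.79%. On HFCF *Slc2a8* had 15.2 ± 0.648 CPM in livers labelled HuRHep-/- and 14.9 ± 0.442 CPM in those labelled WT (SD, n = 3; +0.01 ± 0.074, adjusted p = 0.941). The estimated change of its genotype effect with diet was -0.45 ± 0.095 (HFCF minus chow) and did not pass (adjusted p = 0.126 by limma over all genes, 0.00053 unadjusted). The call on chow was lost without WT replicate 1 or 3 or HuRHep-/- replicate 1 or 2, and 2 of the 10 passed without WT replicate 2. Averaged over the diets 1 was higher, *Slc2a8* (+0.25 ± 0.047, adjusted p = 0.00467), with the estimate on HFCF near 0, and 2 were lower, the mitochondrial aldehyde dehydrogenase *Aldh2* (-0.21 ± 0.054, adjusted p = 0.0194) and *Aldh3a2* (-0.28 ± 0.085, adjusted p = 0.0366), beside 19.2% of all genes in either direction. The median log2 diet difference of the 10 genes was 0.15 in livers labelled WT and 0.09 in those labelled HuRHep-/-.

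Of 18 other ChREBP targets, 8 rose and 1 fell with HFCF in livers labelled WT, and 10 rose and 1 fell in those labelled HuRHep-/-, beside 24.2% and 38.9% of all genes, with median log2 differences of 0.42 and 0.52. *Scd1*, the stearoyl-CoA desaturase, stood at 5890 ± 1980 CPM (SD, n = 3) in chow livers labelled WT and 1930 ± 521 CPM in those labelled HuRHep-/-, and at 19500 ± 1000 and 16900 ± 4740 CPM on HFCF. Its diet difference was +1.78 ± 0.29 (log2, SE; adjusted p = 0.00193) in livers labelled WT and +3.12 ± 0.29 (adjusted p = 6.97e-05) in those labelled HuRHep-/-. The other targets named here also rose in both genotypes, given as WT and then HuRHep-/-. *Gpd1*, glycerol-3-phosphate dehydrogenase, rose by 0.71 ± 0.13 (adjusted p = 0.00352) and 0.42 ± 0.13 (adjusted p = 0.0234). *Fgf21*, a hepatic hormone gene, rose by 1.84 ± 0.35 (adjusted p = 0.00435) and 1.54 ± 0.35 (adjusted p = 0.00607). *Acaca*, acetyl-CoA carboxylase, rose by 0.58 ± 0.12 (adjusted p = 0.00579) and 0.85 ± 0.12 (adjusted p = 0.000499). *Pnpla3*, a lipid droplet protein gene, rose by 1.66 ± 0.42 (adjusted p = 0.016) and 2.50 ± 0.42 (adjusted p = 0.00124), from chow group means of 0.396 and 0.199 CPM. The gene that fell was *Klf10* in both genotypes (-1.71 ± 0.43, adjusted p = 0.0148, and -1.48 ± 0.43, adjusted p = 0.0177), a clock-controlled transcription factor gene, named here after its values were seen. The counts depended on single libraries: 4 passed in livers labelled WT without chow WT replicate 1 and 5 without HFCF WT replicate 1, and 7 passed in those labelled HuRHep-/- without chow replicate 2, chow replicate 3 or HFCF replicate 1 of that genotype.

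**Figure D4:**
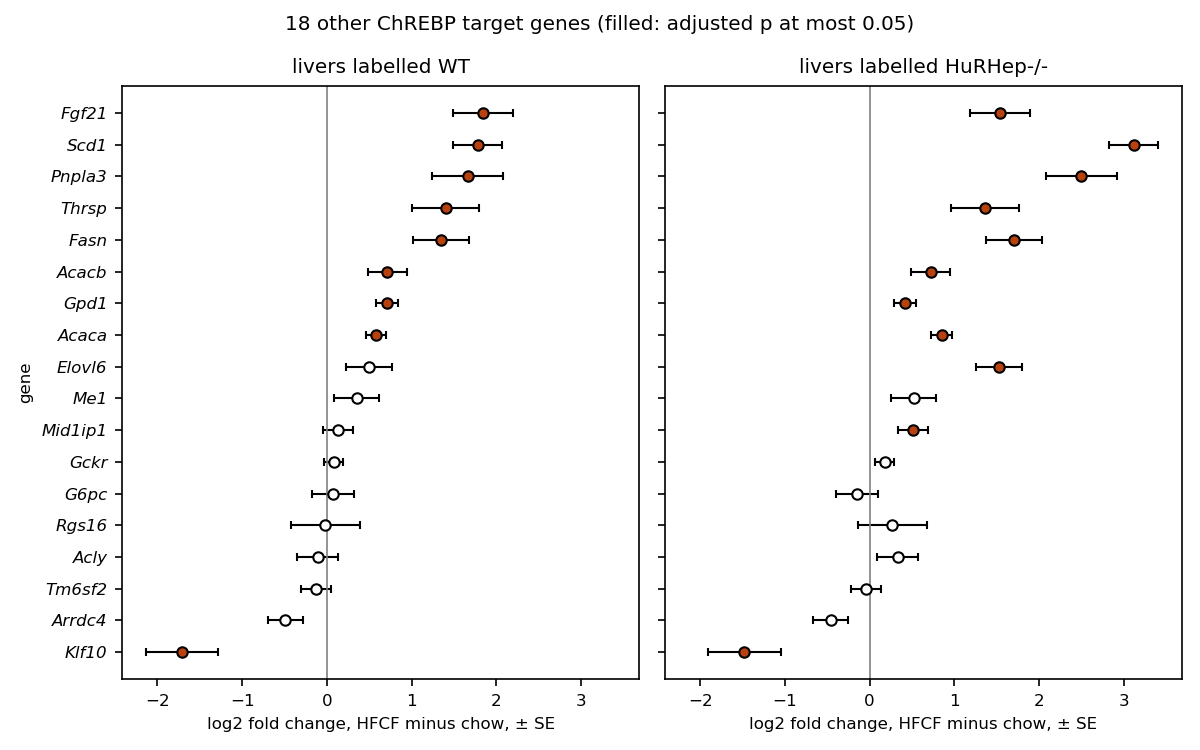
Log2 fold change ± SE between HFCF and chow for the 18 other ChREBP targets in livers labelled WT and HuRHep-/-, with filled points at an adjusted p of at most 0.05. *Scd1* lies at 1.78 and 3.12, and *Klf10* is the filled point left of 0 in each panel.

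By genotype, 0 of these 18 targets passed on HFCF (0 with voom weights as well), beside 6.79% of all genes, and 1, *Scd1*, passed on chow, beside 4.18%, where it was lower in livers labelled HuRHep-/- (-1.59 ± 0.28, log2, SE; adjusted p = 0.026). The count on chow was 0 without chow WT replicate 1 or 3 or chow HuRHep-/- replicate 1 or 2, and also with the replicate number as a block. Averaged over the diets 3 rose and 1 fell, beside 19.2% of all genes. *Scd1* was lower (-0.92 ± 0.2, adjusted p = 0.00961), with an estimate of -0.27 ± 0.27 (adjusted p = 0.536) on HFCF. *Arrdc4*, the arrestin domain gene related to *Txnip*, was higher (+0.59 ± 0.15, adjusted p = 0.0174), while *Txnip* had an averaged estimate of -0.40 ± 0.21 (adjusted p = 0.209). *Mid1ip1*, which encodes an activator of acetyl-CoA carboxylase, was higher too (+0.49 ± 0.13, adjusted p = 0.0217).

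Among 7 other enzymes of the pentose phosphate pathway, 1 rose and 1 fell with diet in livers labelled WT and 2 rose and 1 fell in those labelled HuRHep-/-, near the 24.2% and 38.9% of all genes. *Pgd*, which makes NADPH in the oxidative arm after *G6pdx*, rose in both (+0.70 ± 0.21, log2, SE; adjusted p = 0.0295, and +1.21 ± 0.21, adjusted p = 0.00128), from group means of 30.4 and 32.5 CPM to 49.6 and 77.5 CPM. *Taldo1*, the transaldolase that acts beside *Tkt*, rose in livers labelled HuRHep-/- (+0.29 ± 0.089, adjusted p = 0.0235), beside an estimate of +0.19 ± 0.089 (adjusted p = 0.147) in those labelled WT. *H6pd*, the enzyme of the endoplasmic reticulum with the same reaction as *G6pdx*, fell in both (-0.37 ± 0.093, adjusted p = 0.0153, and -0.46 ± 0.093, adjusted p = 0.0033). By genotype *Pgls*, 6-phosphogluconolactonase, was lower on chow (-0.29 ± 0.06, adjusted p = 0.0432), a call lost without any of the 6 chow livers, with the replicate number as a block and without a filter on low counts. That is 1 of 7, beside 4.18% of all genes. Averaged over the diets 2 fell, *Pgls* (-0.21 ± 0.042, adjusted p = 0.0065) and the epimerase *Rpe* (-0.21 ± 0.06, adjusted p = 0.0314), beside 19.2% of all genes, and on HFCF 0 passed, beside 6.79%. Without single libraries the count for diet in livers labelled WT was 0 (chow WT replicate 1 or HFCF WT replicate 3) or 1 (chow WT replicate 3 or HFCF WT replicate 1).

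The genes whose pattern over the 12 libraries was most like that of *Khk* were *Gpi1*, *Srp54c* and *Tcn2*, with root mean square differences of centred log2 CPM of 0.092, 0.11 and 0.12, beside a median of 0.4 over 14535 genes. Within the 8 genes, *Tkfc* (0.13) and *Tkt* (0.14) were nearest to *Khk*. For *Mlxipl* the nearest were *Slc17a3* (0.084), *Clcn2* (0.094) and *Pan2* (0.097), beside a median of 0.32. These are descriptions over libraries that share depth and diet groups.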

How the data were processed

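Per the study's methods, reads were aligned by the authors with CLC Genomics Workbench to RefSeq GRCm38.p6 with a reverse strand setting, and unnormalized whole read counts per gene were deposited in 1 table per diet. Because many counts carry comma separators, their unit was recorded as other, and they were tested on a log scale rather than with a count model. The CLC version, and any filter applied before deposit, are not given in the sources used here. The study's RPKM limit on called genes was not applied.

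Counts were scaled to CPM with TMM factors (trims 0.3 and 0.05) and log2-transformed with a pseudocount of 0.5, which understates changes of low genes. The filter asked for about 10 counts, scaled to the median library, in 3 libraries and 15 in total, leaving 13526 on chow, 14295 on HFCF and 14535 over both. Differences were tested in limma 3.58.1 (R 4.3.3) with a variance trend and Benjamini-Hochberg adjustment over all genes tested, genotype within the 6 livers of a diet and all other contrasts over 12. With 3 against 3 an exact permutation test cannot go below 0.1. Positions and exon lengths came from GENCODE on GRCm38. Scripts were tested on simulated data. The text names the 8 genes and up to 3 called genes per list and comparison, by lowest p. Genes and lists were chosen with earlier results of these data known. Alternatives were RLE and upper-quartile factors, filters, a pseudocount of 2, voom weights, a replicate block, other sample sets, the study's fold change of 1.5 and leaving out each library.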

Additional observations from a re-analysis of the deposited data

How the results depend on the processing

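Over scaling, filters, pseudocount, voom weights, the replicate block and the other sample sets, 384 of 391 log2 values of single genes kept their direction and side of the threshold. With single libraries left out 452 of 504 did. The count of members past the threshold for genotype on HFCF was 2, and 1 without a filter, 1 with the replicate block, 0 with the fold change of 1.5 added and 0 to 2 with single libraries left out. For genotype averaged over the diets it was 1, then 0 with the fold change and 1 to 2 without single libraries, where leaving out HFCF WT replicate 3 gave 2, *Glyctk* and *Mlxipl*. For diet in livers labelled WT it was 1, then 2 with upper-quartile factors, 2 with the replicate block, 0 with the fold change and 1 to 2 without single libraries. For genotype on chow it was 0 to 1 without single libraries. For diet in livers labelled HuRHep-/- it stayed at 4 or 5, and for the interaction at 0. *Elavl1* kept log2 values of 0.36 to 0.44 on chow and 0.36 to 0.45 on HFCF without single libraries, with some calls lost.

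Small estimates changed sign. Without a filter, *Mlxipl* gave -0.01 for diet in livers labelled WT. Without single libraries, genotype on chow ran from -0.14 to 0.06 for *Tkfc* and from -0.03 to 0.38 for *Pklr*. On HFCF it ran from -0.08 to 0.21 for *Pklr* and from -0.50 to 0.16 for *Txnip*. Averaged over the diets it ran from -0.05 to 0.07 for *Tkt* and from -0.10 to 0.14 for *G6pdx*. Diet in livers labelled WT ran from -0.21 to 0.18 for *Mlxipl*, and the interaction from -0.30 to 0.10 for *Mlxipl* and from -0.33 to 0.08 for *Pklr*. The cause was not tested.

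Counts over all genes moved more. For genotype on chow 566 genes passed, 341 with the replicate block, 947 with all 12 livers in 1 fit and 9 without chow HuRHep-/- replicate 2. On HFCF 971 passed, 1342 with the replicate block, 1621 with all 12 livers and 28 without HFCF HuRHep-/- replicate 1. For diet in livers labelled WT 3511 passed, 2058 in the 6 livers alone, and 1979 to 3957 without single libraries, with 1979 and 2295 without chow WT replicates 1 and 3, 2103 without HFCF WT replicate 3 and 3957 without HFCF WT replicate 2. For genotype averaged over the diets 2793 passed, and 1849 (without chow HuRHep-/- replicate 2) to 2946 without single libraries. For diet in livers labelled HuRHep-/- 5647 passed, and 4041 to 5959 without single libraries. The interaction called 41 genes without HFCF WT replicate 3. Correlations between the deviations of same-numbered replicates were low: of 12 pairs 2 had a correlation over 0.1 (range -0.14 to 0.19). Of the pairs 6 correlated best by their own number, among them the 3 pairs of genotypes on HFCF (0.09, 0.19 and 0.09). Whether the numbers pair the livers was not settled. The numbers were not taken as pairs.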
